A study of Danio rerio with 8 samples.

Results

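DNA repair genes were examined in the retina of albino zebrafish (Danio rerio) after a light lesion, in which intense light destroys photoreceptors that Müller glia, the radial glia of the retina, later replace. The genes were those whose annotated symbol begins with the name of a known repair family (rad, xrcc, ercc, msh, mlh, pms, fanc, brca, parp, apex, ung, lig, rpa and a few single genes). This rule found 43 of the 15502 probe sets tested, which read 40 of 8793 named genes. Whole-retina RNA was hybridised to Affymetrix zebrafish arrays, 4 from unlesioned control fish and 4 from light-lesioned fish. All fish were albino and had been dark-adapted. The light lesion group then had 72 h of constant bright light, and the controls went back to normal lighting, so the light and the lesion it causes cannot be told apart. The labels give no age, and nothing in them says whether a replicate was 1 fish, a pool or a repeat of 1 RNA, so each p-value here reflects the spread among these arrays alone, which may be technical.

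Cells mend DNA by several routes. Base excision repair removes single damaged bases, such as those oxidised in light-exposed retina, by a glycosylase that lifts out the base, an endonuclease that cuts the backbone and a ligase that seals it. Nucleotide excision repair cuts out bulky lesions, mismatch repair corrects copying errors, homologous recombination and end joining mend double-strand breaks, and the Fanconi anaemia proteins clear crosslinks between strands. Several of these proteins also work at every replication fork: replication protein A coats single-stranded DNA, and DNA ligase 1 joins the fragments of the lagging strand.

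Levels are log2 RMA values. A log2 fold change is positive where the light lesion mean exceeded the control mean, each over n = 4 arrays. A gene was called where its Benjamini-Hochberg adjusted p, from limma over all 15502 probe sets, was under 0.05. Of the 40 repair genes 12 were called higher (30.0%) and 2 lower (5.0%), and 26 were not called. Over all 8793 genes 24.4% were called higher and 20.1% lower, and over all probe sets 40.2% were called in either direction, so the share of repair genes called higher was near that of the array and the share called lower was under it. The median log2 fold change was 0.07 for the repair genes and -0.03 for all genes. Groups did not overlap for 16 repair genes (40%), against 43.5% of all genes. The count of 12 was 8 without control replicate 2 and 8 without light lesion replicate 2. With the same omissions the 6232 probe sets of the whole array called in either direction became 5256 and 5500. At least 2-fold changes were called for 3 repair genes (7.5%), all of them upward: rpa2, rpa3 and apex1. Of all genes 3.66% were called at least 2-fold higher. Of the other genes called higher, all 9 changed by less than 1.5-fold.

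**Figure D1:**
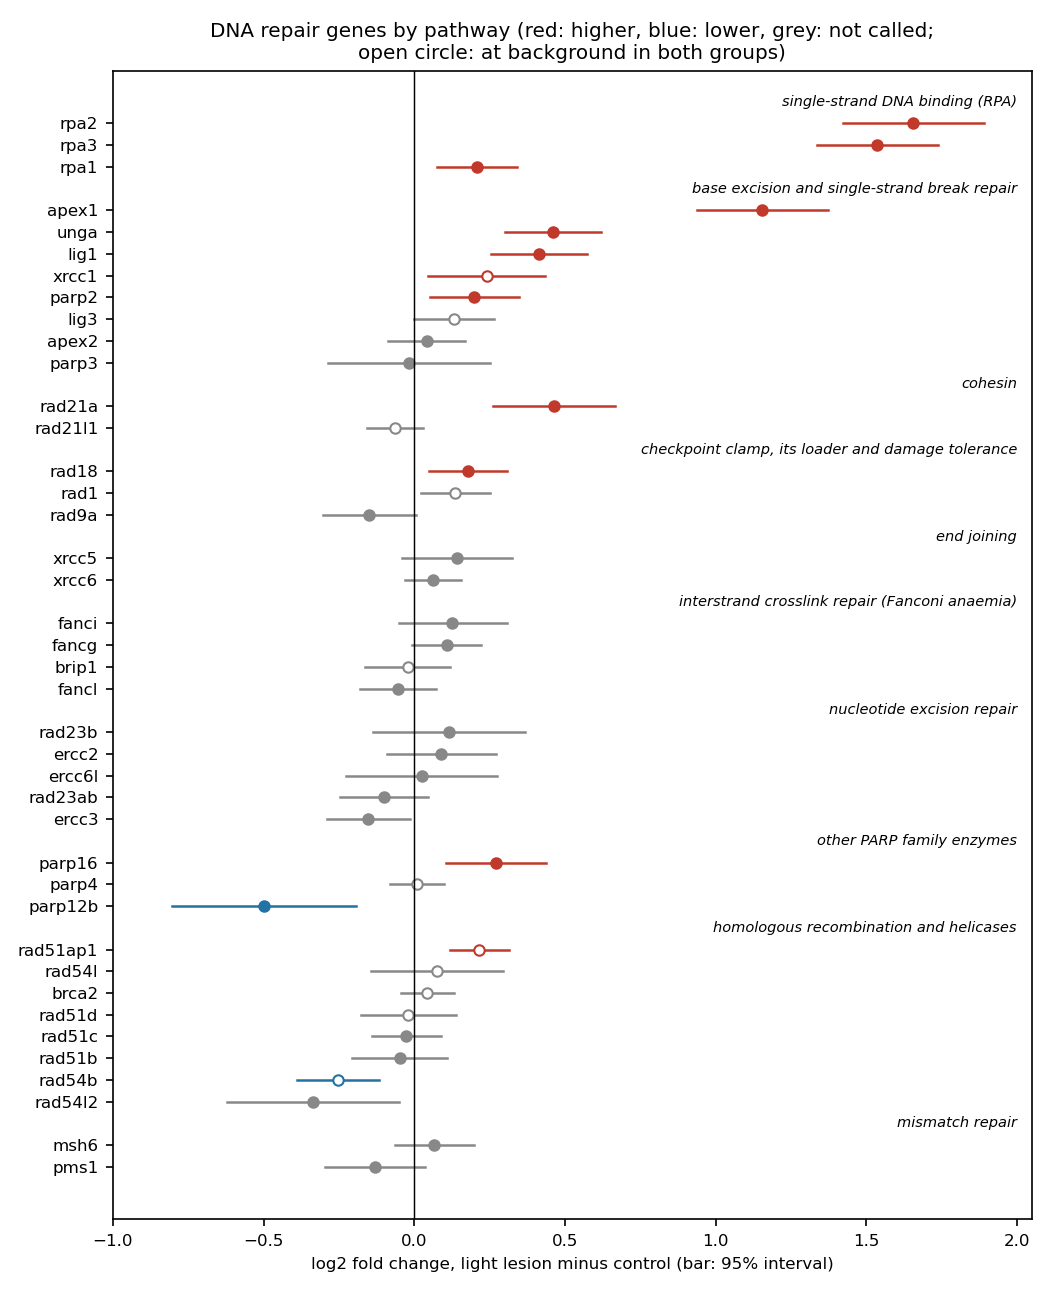
Log2 fold change of the 40 repair genes, light lesion minus control, grouped by pathway, with the 95% interval of the fit as a bar and n = 4 arrays a group. The genes rpa2, rpa3 and apex1 lie above 1, while the members of nucleotide excision, mismatch, crosslink and end joining repair lie between -0.15 and 0.14.

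Signals of the repair genes were modest. The median control mean of their 40 probe sets was 7.45, against 8.08 for all genes, and 11 of them (27.5%, against 26.0% of all genes) lay in both groups at or under 7.08, the highest group mean of the 27 probe sets for Bacillus subtilis genes, used here as the background level. Of those 11 genes 2 were called higher, 1 lower and 8 not. Of the 29 genes above that level in at least 1 group, 10 were called higher, 1 lower and 18 not. The calls over all genes were not counted by this split, so these counts cannot be set against the array. Of the genes in the rule's families, only those with a named probe set are described.

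**Figure D2:**
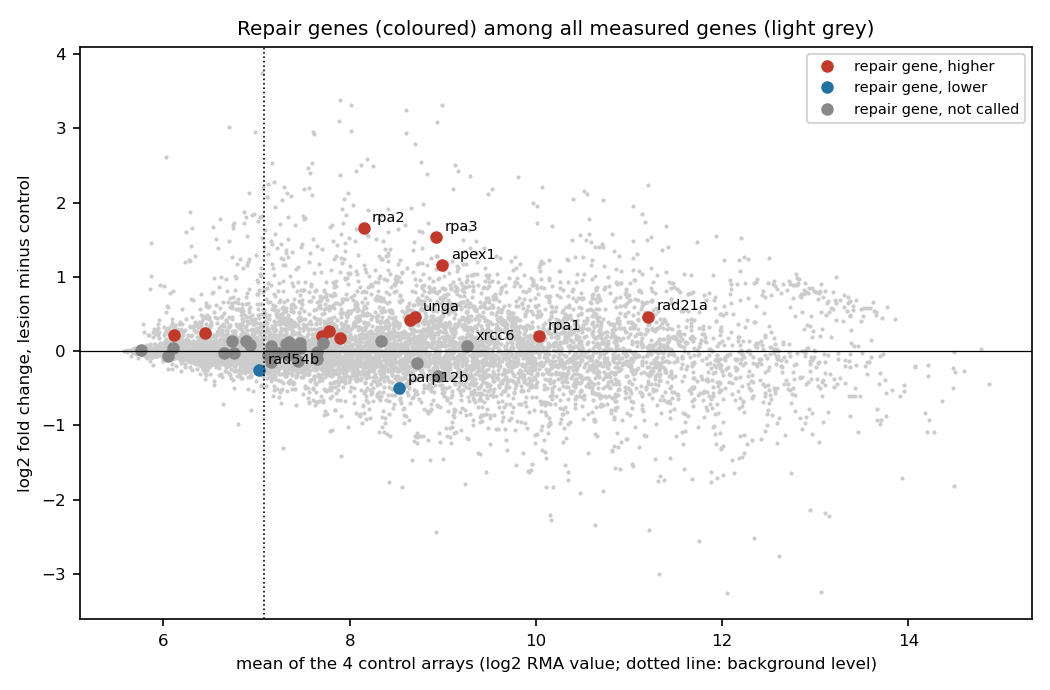
Mean of the 4 control arrays (log2 RMA value) against the log2 fold change for the 8793 named genes in light grey and the 40 repair genes in colour, with the background level of 7.08 as a dotted line. The genes rpa2, rpa3 and apex1 stand well above the other repair genes, most of which lie near 0 at low control means.

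The 3 subunits of replication protein A, the trimer that binds single-stranded DNA in replication and in several repair routes, were all called higher, but by unequal amounts. The middle subunit rpa2 had values of 8.42, 8.08, 7.96 and 8.13 on control arrays 1 to 4 and of 9.98, 9.81, 9.80 and 9.64 on light lesion arrays 1 to 4. The lowest light lesion array exceeded the highest control by 1.21, and the rise was 3.15-fold (log2 fold change 1.66, SE 0.10, adjusted p = 2.50e-06). The small subunit rpa3 read 8.84, 8.91, 8.92 and 9.03 in controls and 10.22, 10.58, 10.41 and 10.63 after the lesion. Its groups lay 1.19 apart, and it rose 2.90-fold (log2 fold change 1.54, SE 0.09, adjusted p = 1.68e-06). Light lesion array 1 was the highest of the 4 for rpa2 and the lowest for rpa3, and array 4 the reverse.

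The large subunit rpa1, which carries the main DNA-binding domains, read 10.06, 9.96, 10.05 and 10.07 in controls and 10.28, 10.36, 10.20 and 10.13 after the lesion. The groups were separate by only 0.05, and the rise was 1.15-fold (log2 fold change 0.21, SE 0.06, adjusted p = 0.0197). That call was lost without control replicate 2 (adjusted p = 0.0632) or without light lesion replicate 2 (adjusted p = 0.0516).

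Differences between partner genes were tested on the per-array difference of their values, over 9 pairs that act in 1 complex or as alternatives in 1 step, by exact permutation of the group labels (two-sided, 70 ways to assign them, smallest p 0.0286). The rise of rpa1 was smaller than that of rpa2 by 1.45 on the log2 scale (SE 0.11, exact p = 0.0286, adjusted over the 9 pairs 0.0643) and smaller than that of rpa3 by 1.33 (SE 0.12, exact p = 0.0286, adjusted 0.0643). Both reached the smallest p the design allows. A pair at that p cannot pass 0.05 after adjustment unless most of the 9 pairs reach it too. The adjusted values therefore cannot decide whether a single pair differed. Between rpa2 and rpa3 the difference was 0.12 (SE 0.20, exact p = 0.571).

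**Figure D3:**
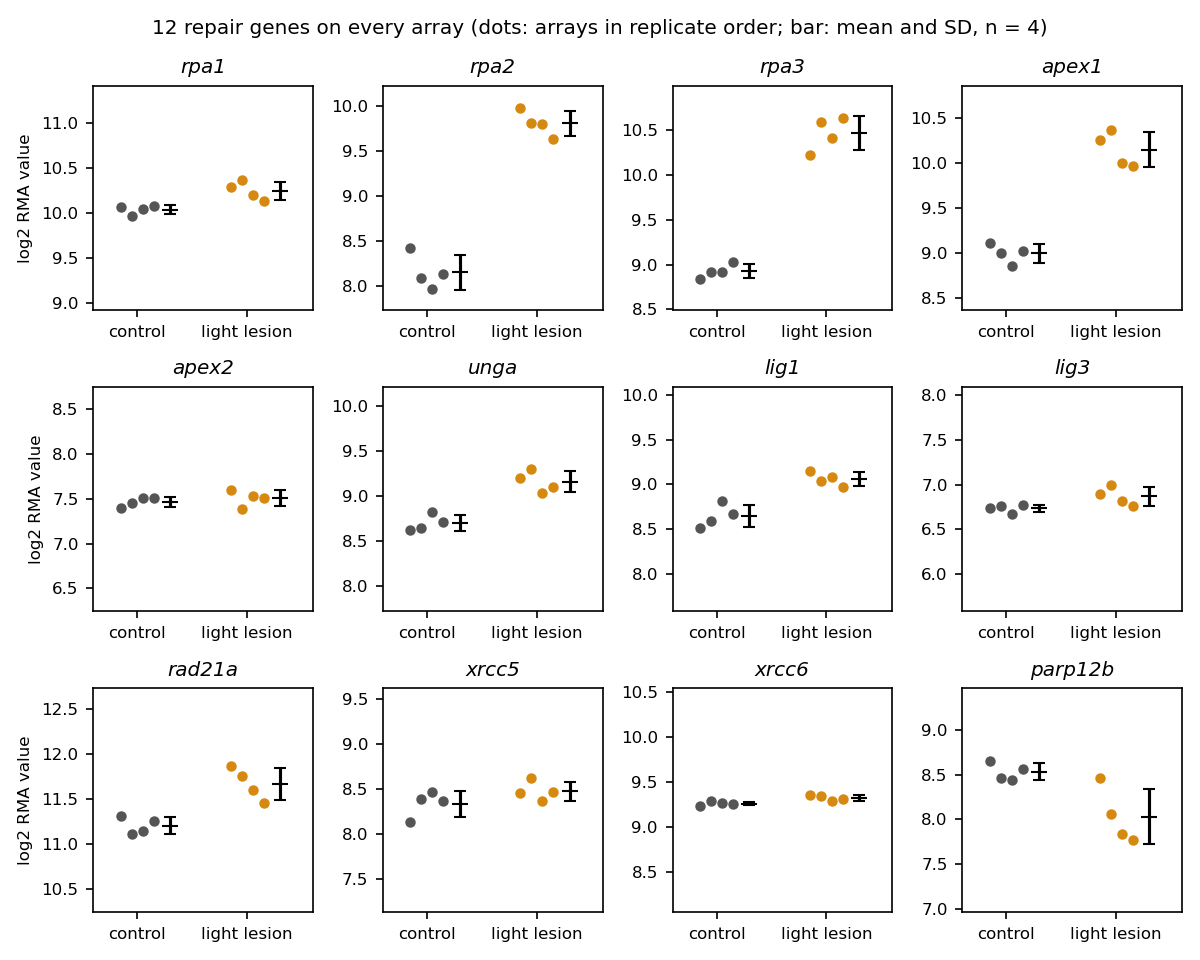
Log2 RMA values of 12 repair genes on each of the 4 control and 4 light lesion arrays (dots, numbered 1 to 4 from the left), with the mean and SD of each group beside them and every panel spanning the same range. The groups are far apart for rpa2, rpa3 and apex1, close for rpa1, unga, lig1 and rad21a, and overlap for apex2, lig3, xrcc5, xrcc6 and parp12b.

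Of the 8 genes of base excision and single-strand break repair, 5 were called higher (62.5%, against 24.4% of all genes) and none lower. The median change was 0.22 on the log2 scale. The rise of apex1, the main endonuclease that cuts DNA at sites that have lost their base, was the steepest. Its values were 9.11, 8.99, 8.85 and 9.02 in controls and 10.26, 10.37, 10.004 and 9.97 after the lesion. No light lesion array came within 0.86 of a control, and the rise was 2.23-fold (log2 fold change 1.16, SE 0.10, adjusted p = 1.40e-05). Its relative apex2, a nuclease with weaker activity at such sites, read 7.39, 7.45, 7.51 and 7.51 in controls and 7.60, 7.39, 7.53 and 7.51 after the lesion. Those groups overlapped, with a log2 difference of 0.04 (95% interval -0.09 to 0.17, adjusted p = 0.600). The changes of apex1 and apex2 differed by 1.11 (SE 0.14, exact p = 0.0286, adjusted over the 9 pairs 0.0643).

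The glycosylase gene unga, whose product removes uracil from DNA, read 8.62, 8.64, 8.82 and 8.71 in controls and 9.20, 9.30, 9.03 and 9.10 after the lesion. Every light lesion array was above every control, and the rise was 1.38-fold (log2 fold change 0.46, SE 0.07, adjusted p = 6.36e-04). The ligase gene lig1 had values of 8.52, 8.59, 8.81 and 8.67 in controls and of 9.15, 9.03, 9.09 and 8.97 after the lesion. Here too the groups were separate, and lig1 rose 1.33-fold (log2 fold change 0.41, SE 0.07, adjusted p = 0.00127).

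The ligase of single-strand break repair, lig3, read 6.74, 6.76, 6.67 and 6.77 in controls and 6.89, 7.0, 6.82 and 6.76 after the lesion. It was at background in both groups and was not called (log2 difference 0.13, adjusted p = 0.104). The changes of lig1 and lig3 differed by 0.28 (SE 0.10, exact p = 0.0571, adjusted 0.0857). Its scaffold partner xrcc1 read 6.65, 6.51, 6.24 and 6.38 in controls and 6.70, 6.78, 6.67 and 6.59 after the lesion. The groups overlapped at background level, and xrcc1 was called higher only barely (log2 difference 0.24, SE 0.09, adjusted p = 0.0498). Leaving out any 1 array except control replicate 1 ended that call (adjusted p between 0.0510 and 0.124). Between xrcc1 and lig3 the changes differed by 0.11 (SE 0.08, exact p = 0.286).

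Of the poly(ADP-ribose) polymerases that sense strand breaks, parp2 and parp3 were measured. The parp2 values were 7.64, 7.66, 7.77 and 7.75 in controls and 8.07, 7.87, 7.86 and 7.81 after the lesion, groups that were separate by 0.03. It was called higher (1.15-fold, log2 fold change 0.20, SE 0.06, adjusted p = 0.0356), a call lost in 6 of the 8 omissions of 1 array (control replicate 1, 2 or 4, or light lesion replicate 1, 2 or 3, adjusted p between 0.0545 and 0.0951). The mean of parp3 was 7.65 ± 0.24 in controls and 7.63 ± 0.15 after the lesion (SD, adjusted p = 0.925).

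The genes that the rule placed in the routes for bulky lesions, mismatches and crosslinks were not called. The rule placed 5 genes under nucleotide excision repair. Those known to act there include ercc2 and ercc3, the helicases of the transcription factor TFIIH that open DNA around a lesion. The ercc3 values were 8.69, 8.75, 8.67 and 8.78 in controls and 8.66, 8.66, 8.51 and 8.45 after the lesion. Its groups touched but did not overlap, and the log2 difference of -0.15 (SE 0.06) had an adjusted p of 0.0756. Without light lesion replicate 1 ercc3 passed as lower (adjusted p = 0.0480).

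The ercc2 values were 7.25, 7.30, 7.44 and 7.26 in controls and 7.62, 7.29, 7.31 and 7.38 after the lesion, with 1 high light lesion array and overlapping groups (log2 difference 0.09, adjusted p = 0.409). The changes of ercc2 and ercc3 differed by 0.24 (SE 0.10, exact p = 0.0571, adjusted over the 9 pairs 0.0857). The rad23 proteins stabilise the lesion sensor Xpc and carry proteins to the proteasome. Of these genes rad23ab was at -0.10 (adjusted p = 0.258) and passed as lower without control replicate 1 (adjusted p = 0.0442). The brighter probe set of rad23b was at 0.12 (SE 0.11, adjusted p = 0.451). A second, dimmer one was at -0.21 (adjusted p = 0.154). The fifth gene, ercc6l, shares its family name but encodes a helicase of mitotic chromosomes. Its brighter probe set was at 0.03 (adjusted p = 0.872), and its dimmer one, at background in both groups, was called higher (0.21, SE 0.05, adjusted p = 0.00770).

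In mismatch repair msh6, whose product takes part in recognising mismatches, was at 0.07 (95% interval -0.07 to 0.20, adjusted p = 0.400). The MutL-related pms1 was at -0.13 (95% interval -0.30 to 0.04, adjusted p = 0.197). Of 4 genes tied to crosslink repair, none was called. They were fanci (0.13), whose product clamps on DNA beside Fancd2, the core complex member fancg (0.11), the helicase gene brip1 (-0.02, at background) and the ubiquitin ligase gene fancl (-0.055). Their 95% intervals all lay between -0.18 and 0.31, so a 2-fold change of these probe-set values is outside them.

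Both Ku subunits, which bind broken ends in end joining, stayed uncalled. The xrcc6 values were 9.24, 9.29, 9.26 and 9.26 in controls and 9.36, 9.34, 9.28 and 9.31 after the lesion. The groups barely overlapped, with a log2 difference of 0.06 (95% interval -0.03 to 0.16, adjusted p = 0.261). Its partner xrcc5 read 8.13, 8.39, 8.47 and 8.36 in controls and 8.46, 8.62, 8.37 and 8.46 after the lesion. Control array 1 was low and the groups overlapped (log2 difference 0.14, adjusted p = 0.205). Between xrcc5 and xrcc6 the changes differed by 0.08 (SE 0.08, exact p = 0.457).

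Homologous recombination was read mostly near background, with 5 of its 8 genes at or under that level in both groups. Of the 8 genes 1 was called higher and 1 lower. The gene rad51ap1, whose product promotes the pairing of strands, read 6.08, 6.08, 6.11 and 6.17 in controls and 6.33, 6.34, 6.36 and 6.29 after the lesion. Its groups were separate although both were dim, and it was called higher (log2 difference 0.22, SE 0.04, adjusted p = 0.00319). The translocase gene rad54b read 6.92, 6.95, 7.16 and 7.06 in controls and 6.78, 6.72, 6.78 and 6.80 after the lesion. The groups were separate, also at background level, and it was called lower (log2 difference -0.25, SE 0.06, adjusted p = 0.00780).

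The related rad54l was at 0.08 (adjusted p = 0.568), the recombination mediator gene brca2 at 0.04 (adjusted p = 0.406) and the recombination genes rad51b, rad51c and rad51d at -0.05, -0.03 and -0.02 (adjusted p = 0.616, 0.718 and 0.849). The last gene placed here, rad54l2, shares the family name, while its mammalian counterpart is known as a cofactor of nuclear receptors. It read 9.21, 8.74, 8.74 and 9.10 in controls and 8.51, 8.87, 8.59 and 8.48 after the lesion. Light lesion array 2 lay among the controls, and the log2 difference of -0.34 (SE 0.13) did not pass (adjusted p = 0.0611). It passed as lower without control replicate 2 (adjusted p = 0.0433), control replicate 3 (adjusted p = 0.0416) or light lesion replicate 2 (adjusted p = 0.0262).

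Among the checkpoint and damage tolerance genes, rad9a and rad1 encode parts of the clamp that is loaded at damage to start signalling. The rad9a values were 7.07, 7.21, 7.31 and 7.04 in controls and 7.10, 6.95, 6.97 and 7.01 after the lesion. Those of rad1 were 6.87, 6.93, 6.82 and 6.93 in controls and 7.10, 7.05, 7.003 and 6.95 after the lesion. Neither passed. The gene rad9a was at -0.15 (adjusted p = 0.114), with a light lesion mean of 7.01 that lay under the background level. The gene rad1, at background in both groups, was at 0.14 (adjusted p = 0.0579). It passed as higher without light lesion replicate 4 (adjusted p = 0.0433). The difference of the changes of these clamp partners was -0.29 (SE 0.09, exact p = 0.0286, adjusted over the 9 pairs 0.0643).

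The ubiquitin ligase gene rad18, whose product marks the replication clamp at stalled forks, read 7.84, 7.86, 7.96 and 7.94 in controls and 7.99, 8.17, 8.02 and 8.14 after the lesion. The groups were separate by 0.02 and it was called higher (1.13-fold, log2 fold change 0.18, SE 0.06, adjusted p = 0.0342). Its second probe set was at -0.095 (adjusted p = 0.317), and the 2 probe sets differed in their change by 0.27 (exact p = 0.0286, adjusted over 3 such pairs 0.0857). With their mean in place of the brighter one the call was gone (log2 fold change 0.04, adjusted p = 0.579), as it was without control replicate 1, 2 or 4 or light lesion replicate 2 or 4 (adjusted p between 0.0563 and 0.0926).

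Cohesin holds sister chromatids together and is needed for recombination between them. Its subunit gene rad21a had values of 11.31, 11.11, 11.14 and 11.26 in controls and 11.87, 11.75, 11.60 and 11.46 after the lesion. The groups were separate by 0.15, and it rose 1.38-fold (log2 fold change 0.46, SE 0.09, adjusted p = 0.00251). The germline-type relative rad21l1 was at background in both groups (log2 difference -0.06, adjusted p = 0.259).

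Of the 3 other members of the PARP family, which mostly act outside DNA repair, 1 was called higher, 1 lower and 1 not. The gene parp16, whose mammalian product sits in the endoplasmic reticulum membrane, read 7.92, 7.82, 7.68 and 7.71 in controls and 8.03, 8.16, 8.12 and 7.90 after the lesion. The groups overlapped slightly, and it was called higher (1.21-fold, log2 fold change 0.27, SE 0.07, adjusted p = 0.0154). The largest fall of any repair gene was that of parp12b, related to a mammalian gene of the interferon response. It read 8.65, 8.46, 8.45 and 8.56 in controls and 8.46, 8.06, 7.83 and 7.78 after the lesion, with light lesion array 1 at the level of the controls. It was called lower (log2 fold change -0.50, SE 0.14, adjusted p = 0.0155). The vault-associated parp4 was at background in both groups, at 5.75 ± 0.02 and 5.76 ± 0.02 (SD, adjusted p = 0.867).

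The light lesion arrays were not alike in their order. Of the 12 repair genes called higher, light lesion array 4 was the lowest of its group for 9 and the highest for 1, and array 2 was the highest for 6 and the lowest for none. The same array 4 was the lowest for parp12b. This order was not counted over all genes, so whether it is particular to the repair genes was not tested.

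Other genes of the same routes were read from lists of repair and damage response genes outside the naming rule. Of 75 measured, 19 were called higher (25.3%), 10 lower (13.3%) and 46 not, with a median of 0.01. Those shares over all 8793 genes, to be set beside each list below as well, were 24.4% higher and 20.1% lower (median -0.03). Among base excision genes 3 of 7 were called higher and none lower. They were fen1, the flap nuclease of long-patch repair and of lagging-strand synthesis (log2 fold change 0.93, SE 0.06, adjusted p = 3.09e-06), the chromatin protein gene hmgb1b (0.57) and, at background, the glycosylase gene neil1 (0.19, lost without control replicate 2 or 4 or light lesion replicate 2, adjusted p between 0.0608 and 0.0847).

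**Figure D4:**
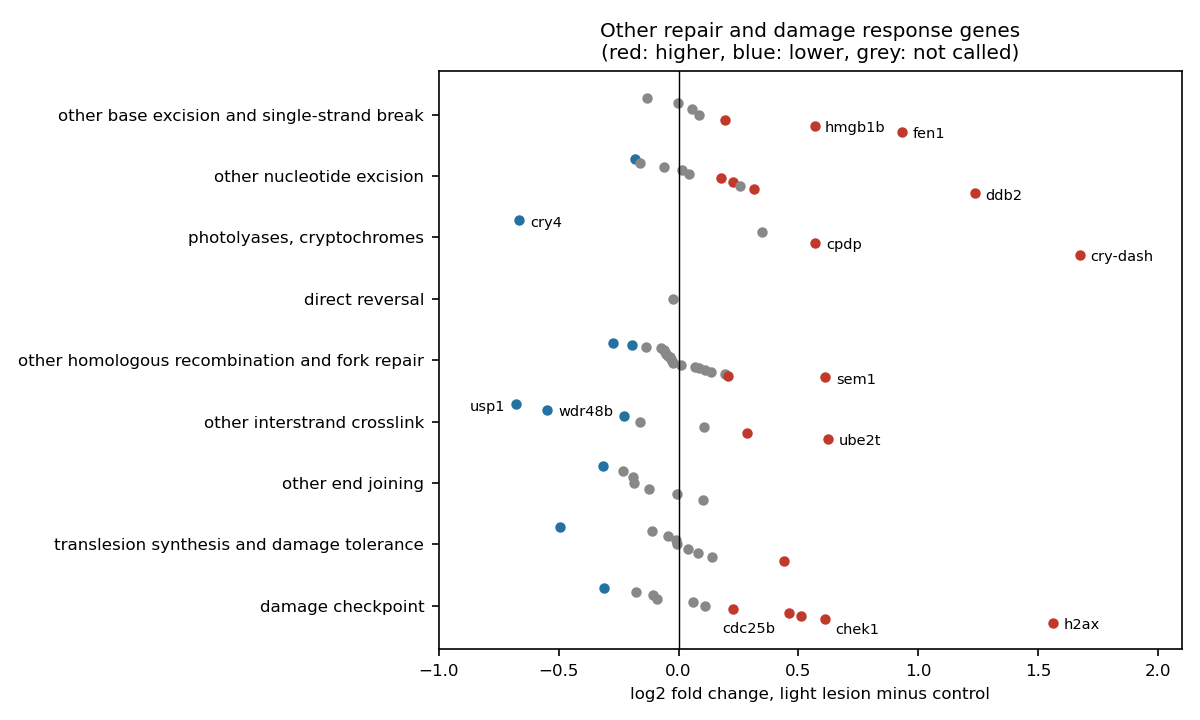
Log2 fold change, light lesion minus control, of the measured repair and damage response genes outside the naming rule, 1 dot a gene, by list, with n = 4 arrays a group. The dots farthest to the right are cry-dash (1.67) and ddb2 (1.24), both with controls under the background level, and h2ax (1.56). Those farthest to the left are usp1 (-0.68) and cry4 (-0.66), whose light lesion mean was under that level.

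Of 4 photolyase and cryptochrome genes 2 were called higher and 1 lower. Photolyases are enzymes that use the energy of light to undo ultraviolet lesions, and zebrafish genes of this family are known to respond to light. The gene cry-dash, whose product is a photolyase of the cryptochrome family, read 6.75, 6.49, 6.44 and 6.45 in controls and 7.49, 8.26, 8.69 and 8.38 after the lesion. Every light lesion array was above the controls, array 1 by the least (log2 difference 1.67, SE 0.22, adjusted p = 2.18e-04). All 4 controls were under the background level, so the size of the change is uncertain. With each control array set to that level, the mean of this probe set was 2.18-fold higher after the lesion. Here and below, such a fold value compares means alone, without the spread among arrays, and is not a lower limit. A second probe set was called higher too, but by less (log2 difference 0.46, adjusted p = 0.00311). The photolyase gene cpdp read 6.85, 6.75, 6.85 and 6.78 in controls and 7.30, 7.62, 7.44 and 7.16 after the lesion. Those groups were separate (log2 difference 0.57, SE 0.09, adjusted p = 7.87e-04), again with all controls under the background level. With the controls set to that level, cpdp was 1.23-fold higher.

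The third photolyase gene, cry5, was 0.35 higher without passing (adjusted p = 0.0680), though it passed without control replicate 3 (adjusted p = 0.0254) or light lesion replicate 2 (adjusted p = 0.0129), and its dimmer probe set was called higher (0.22, adjusted p = 0.0258). The cryptochrome gene cry4 was called lower (log2 difference -0.66, SE 0.06, adjusted p = 3.91e-05), with 3 of 4 light lesion arrays under the background level. With those arrays set to that level, cry4 was 1.52-fold lower. The lesion sensor gene ddb2, which passes ultraviolet damage on to Xpc, read 7.01, 6.81, 6.997 and 6.88 in controls and 8.01, 7.94, 8.48 and 8.20 after the lesion. The groups were far apart (log2 difference 1.24, SE 0.11, adjusted p = 2.14e-05). All 4 controls were under the background level. With the controls set to that level, ddb2 was 2.11-fold higher. Its partner ddb1 was called lower by little (-0.18, adjusted p = 0.0345). A second probe set was also called lower (-0.27, adjusted p = 0.00368). The call of the first was lost without control replicate 1, 2 or 4 or light lesion replicate 1, 3 or 4 (adjusted p between 0.0592 and 0.0881). At background xpc itself was at 0.04 (adjusted p = 0.574). Of the 10 other nucleotide excision genes 4 were called higher, among them the TFIIH genes gtf2h2 (0.31) and cdk7 (0.23), and ddb1 was the 1 called lower. The call of cdk7 was lost without control replicate 2 or 4 or light lesion replicate 2 (adjusted p between 0.0538 and 0.0589).

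Of 20 other recombination and fork repair genes 2 were called higher and 2 lower. They were sem1, which encodes both a Brca2 partner and a proteasome subunit (0.61, a second probe set 0.15 and not called), the dim swi5 (0.21, lost without control replicate 4, adjusted p = 0.0532), and the end-resection genes mre11a (-0.27) and rbbp8 (-0.20). Of 7 other crosslink genes ube2t, the conjugating enzyme of the Fanconi pathway, was called higher (log2 difference 0.62, adjusted p = 3.28e-05) with all controls under the background level. With the controls set to that level, ube2t was 1.07-fold higher. The dim cenps, under that level in both groups, was also called higher (0.29). The genes usp1 and wdr48b, the enzyme and the cofactor that remove the ubiquitin that Ube2t helps attach, fell by 0.68 (adjusted p = 6.41e-05) and 0.55 (adjusted p = 1.09e-04), and dclre1c by 0.23. Among the 7 genes listed under end joining only the kinase gene prkdc was called, as lower (-0.31, adjusted p = 0.00558). That list did not hold dclre1c, which was counted with the crosslink genes. In damage tolerance ube2v2 rose by 0.44 and rev3l, the catalytic subunit of a translesion polymerase, fell by 0.50. The direct reversal gene alkbh3 was at -0.02 (adjusted p = 0.824).

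Of 11 damage checkpoint genes 5 were called higher and 1 lower. The histone variant gene h2ax, whose product is phosphorylated around breaks, read 8.86, 8.99, 8.92 and 8.78 in controls and 10.43, 10.68, 10.58 and 10.11 after the lesion. Its groups did not overlap, and it rose 2.95-fold (log2 fold change 1.56, SE 0.11, adjusted p = 5.52e-06). The checkpoint kinase gene chek1 was called higher (log2 difference 0.61, adjusted p = 8.30e-05) with all controls under the background level and a light lesion mean of 7.10, barely above it. The phosphatase gene cdc25b rose by 0.51 (adjusted p = 0.00469), with 2 other probe sets at 1.45 and 0.05. The clamp-associated topbp1 fell by 0.31 (adjusted p = 3.54e-04).

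Most markers of dividing cells were also higher after the lesion. Of 14 measured markers 12 were called higher and none lower, with a median of 1.22, and their mean level ran from 7.65 to 7.93 in controls and from 8.79 to 9.07 after the lesion. The replication clamp gene pcna rose by 1.36 (SE 0.05). The markers that changed most were cdk1 (log2 difference 1.85, with 3 of 4 controls under the background level), tyms (1.81) and ccna2 (1.63). Markers of microglia and leukocytes were called higher for 11 of 12, led by lcp1 (1.44), coro1a (1.35) and slc7a7 (0.97, with all controls under the background level). Their mean level ran from 8.41 to 8.53 in controls and from 8.96 to 9.18 after the lesion. The control means of ptprc, csf1ra and spi1b were also under the background level. With control arrays under that level set to it, these genes were 1.289-, 1.135- and 1.092-fold higher, again without the spread among arrays. A second, dimmer probe set of coro1a (mean 6.05) was not called (-0.05, adjusted p = 0.387). The gene apoeb, called higher, is counted both here and among the Müller glia markers.

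Of 11 Müller glia markers 5 were called higher, led by fabp7a (2.23), vim (0.94) and gfap (0.93), and 3 lower, cahz (-0.64), aqp1a.1 (-0.41) and glula (-0.21). Their mean level ran from 11.19 to 11.28 in controls and from 11.52 to 11.57 after the lesion, but their median log2 fold change was only 0.03. Rod markers were called lower for 6 of 7, led by pde6a (-3.24), gnb1b (-2.22) and gnat1 (-1.82), and nr2e3 was called higher (0.59). Their mean level ran from 12.85 to 12.99 in controls and from 11.13 to 11.47 after the lesion. Cone markers were called lower for 7 of 10, led by opn1mw4 (-1.71), opn1mw2 (-1.09) and gnat2 (-0.83), and gngt2a was called higher (0.34). Inner retinal neuron markers were called lower for 8 of 10, led by prox1a (-1.03), barhl2 (-0.89) and gad2 (-0.66). In bulk RNA a changed number of cells of a type cannot be told apart from a changed amount of RNA per cell. The part of these markers in the changes of the repair genes was not tested.

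The retina label was borne out by photoreceptor genes, with control means of 14.49 for the rod transducin gene gnat1 and 14.18 for its cone counterpart gnat2, and by the Müller glia gene rlbp1a at 12.56. Array medians lay between 7.62 and 7.69, and every array correlated better with each array of its own group (r of at least 0.991) than with any of the other (at most 0.968). The 3′ minus 5′ difference of the GAPDH control probe sets, which moves with RNA quality and labelling, was 0.0450 ± 0.0219 in controls and 0.213 ± 0.0562 after the lesion (SD, exact permutation p = 0.0286). That of actin was -1.39 ± 0.109 in controls and -1.54 ± 0.149 after the lesion, a difference in the other direction that did not pass (exact permutation p = 0.200). The part of RNA quality in the results was not tested.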

How the data were processed

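The data are 8 Affymetrix arrays of zebrafish whole retina. The authors deposited RMA values, 1 for each probe set of each array, a step named in the submitters' processing notes. Its version is not given in the sources used here. By their range (5.47 to 14.89) the deposited values are log2, a base the authors do not state. The number of arrays limits the precision.

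Of 15617 probe sets, 115 control probe sets were left out. Gene symbols came from the platform annotation (10795 probe sets with 1 symbol, 135 with several and 4572 with none). All 43 repair probe sets matched the RefSeq gene table by gene identifier with unchanged symbols. Where a gene had several probe sets, that with the highest mean over the 8 arrays stood for it, and 3 repair genes had more than 1. Groups were tested in R 4.3.3 with limma 3.58.1 (lmFit, then eBayes), with two-sided p-values and neither a covariate nor a filter on dim probe sets. The p-values were adjusted by the Benjamini-Hochberg method across all 15502. Intervals are 95% intervals of that fit. In simulated data of 15502 probe sets the fit called 83 of 100 changed by 0.5 on the log2 scale. It called 100 of 100 changed by 1.0, with 4 false calls. Far fewer probe sets were changed there than were called in the data. Smaller changes, such as those of most called repair genes, were not simulated. Alternatives in normalization, filter, prior, weights, threshold, replicate numbers and omitted arrays are given in the closing section.

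The members, gene lists, partner pairs and tests were chosen with earlier results of these data known. Every member is named. Array values are given for the up to 12 members that rose most and 8 that fell most among those called, for measured partner genes and for the 3 uncalled members of highest mean. From each other list come up to 3 called genes in each direction of largest change, plus pcna, xpc, ddb2 and cry5. The genes alkbh3 and rlbp1a were added after their values were seen. Promoter sequences were not used here.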

Additional observations from a re-analysis of the deposited data

Results flagged for a closer look

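In 80 groups of 4 arrays (40 repair genes in 2 groups), 2 had an array far from the rest by Dixon's criterion, which chance alone meets in about 1 group in 20. For parp4, control replicate 1 read 5.725, below the next value of 5.763. For parp3, light lesion replicate 4 read 7.407, below the next value of 7.686.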

How the results depend on the processing

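Of the 14 repair genes called, 8 kept call and direction under every alternative run: rpa2, rpa3, apex1, rad21a, unga, lig1, rad51ap1 and rad54b, of which the last 2, at background, were not tested after removal of dim probe sets. The alternatives were the replicate block, a second quantile normalization, median centring, removal of dim probe sets, a trended and robust prior, array weights, probe sets averaged per gene, a threshold of 0.01 and the omission of each array. With the threshold of 0.01 the 12 genes higher and 2 lower became 7 and 1, and the 13 probe sets higher and 2 lower became 8 and 1. The 6232 probe sets of the whole array called in either direction became 4395 at that threshold. The repair probe sets lost the larger share of their calls, but they were few and this difference was not tested. After the second quantile normalization 4 genes and 4 probe sets were lower, ercc3 and rad54l2 being added, and 6462 of the whole array were called. That setting also lost xrcc1 (adjusted p = 0.0643) and gained rad1 (0.0452). Median centring lost xrcc1 (0.0686), and the trended and robust prior lost parp2 (0.0521) and rad18 (0.0655) and gained rad54l2 (0.0496). Removal of dim probe sets gained rad54l2 (0.0409), and array weights gained ercc3 (0.0152). Of the list genes, cry5 passed as higher with the replicate block (0.0218), removal of dim probe sets (0.0449), array weights (0.0191) and averaged probe sets (0.0335). The call of ddb1 was lost with the replicate block (0.0737), median centring (0.0577) and the trended and robust prior (0.0738). That of gngt2a was lost after the second quantile normalization (0.126). With the replicate block 9 genes were higher (rpa1, parp2 and rad18 lost) and 2 lower. The whole array then had 5638 probe sets called in either direction, against 6232. Whether the numbers pair the arrays is not stated, and the values do not settle it. Deviations of same-numbered arrays correlated at -0.21, 0.28, -0.24 and 0.17. Those of differently numbered arrays ran from -0.34 to 0.33. Omitting 1 array gave 8 to 11 genes higher and 2 to 3 lower, and 9 to 12 probe sets higher.

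With limma on the pair differences, chosen after seeing the data, 5 pairs passed: rpa1 minus rpa2 (-1.45), rpa1 minus rpa3 (-1.33), apex1 minus apex2 (1.11), lig1 minus lig3 (0.28) and rad9a minus rad1 (-0.29). That fit pooled the variance of the 9 pairs and gave each the same SE of 0.1185. The SEs of the single pairs ran from 0.08 to 0.20. Under the planned exact test no pair had an adjusted p under 0.05. That test could not give such a value unless most of the 9 pairs reached its smallest p. Without light lesion replicate 1 the difference rpa2 minus rpa3 turned from 0.12 to -0.0192. Over the omissions it ran from -0.0192 to 0.24.

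Signs turned only for uncalled genes near 0. Averaging probe sets put rad23b at -0.0491. The second quantile normalization put rad51d at 0.0163 and brip1 at 0.0083, and array weights put rad51d at 0.0069. Over the omissions ercc6l ran from -0.0612 to 0.1163, parp4 from -0.0003 to 0.0201, parp3 from -0.1241 to 0.058, rad51d from -0.0501 to 0.0477, brip1 from -0.0628 to 0.0201, rad51b from -0.0802 to 0.0084 and xpc from -0.0021 to 0.0652. The cause of these shifts was not tested. Members at background limit what a lack of a call shows.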
